A study of Mus musculus with 8 samples.

Results

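The zinc finger transcription factor genes Casz1, Zfp536 and Zfp521 were described in mouse amygdalar intercalated cells with and without intact Tshz1, a zinc finger gene of the teashirt family. The 3 genes are 3 of 32543 in the deposited matrices. They were chosen by name from their levels and genotype differences in these libraries, so those levels are given as a description without a test. All 3 passed the filter on low counts, which kept 14157 genes.

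RNA was sequenced from GFP-positive cells sorted from the ventro-lateral caudal telencephalon of E16.5 embryos (staged in days from the vaginal plug). The knockout (KO) pools were Tshz1GFP/RA embryos and the control (Ctrl) pools were Tshz1GFP/+ embryos, 4 libraries of each, all on an outbred background. Both genotypes carry the GFP allele of Tshz1, so the controls are not wild type, and the labels do not say what the RA allele changes in the gene. Each library is a pool of embryos of 1 genotype, and a title prefix (NX, NY, QT or RM) that the labels do not explain is shared by a KO and a Ctrl library. The labels do not say that pools were independent litters, so every p-value measures the spread between pools, which may be technical.

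Intercalated cells are clusters of GABAergic neurons around the basolateral amygdala, born in the lateral ganglionic eminence of the ventral forebrain. C2H2 zinc finger proteins bind DNA through finger-shaped loops held by a zinc ion, and many recruit repressor complexes to set the timing or type of a neuron. Casz1 is the mammalian relative of castor, a gene that marks time in dividing Drosophila neuroblasts, and in the mouse retina it regulates which cell types progenitors produce. ZNF536, the human counterpart of Zfp536, restrains retinoic acid-driven neuronal differentiation in cultured cells. Zfp521 drives embryonic stem cells of the mouse towards a neural fate, binds the NuRD repressor complex and blocks the transcription factor EBF1.

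Total expected counts ranged between 5785612 and 14535867 per library. The detection floor of 3 counts corresponded to 0.206 to 0.519 CPM (counts scaled to library size with TMM factors). Tshz1, the targeted gene, had 121 (NX), 61.6 (NY), 78.1 (QT) and 55.9 CPM (RM) in KO libraries, against 492, 240.0, 457 and 337 CPM in Ctrl libraries of the same prefixes. It was the check of the labels, and every KO library lay below every Ctrl library (log2 fold change -2.27, SE 0.30; edgeR quasi-likelihood adjusted p = 0.0388, by Benjamini-Hochberg; called in 11 of 21 alternatives). All 7 genes of the intercalated cell marker list were detected and fitted lower in KO (median log2 fold change -0.40). This count and median include Tshz1, the targeted gene. Of the other 6, 1 (Drd1) had an unadjusted p under 0.05 in edgeR. Of all tested genes, 1.91% were lower at that threshold. The summed level of these 6 genes was 1207 to 1925 CPM in KO and 1438 to 2634 CPM in Ctrl libraries, with overlap. Summed markers of GABAergic neurons (8 genes) stood at 1849 to 2006 CPM in KO and 1672 to 2508 CPM in Ctrl libraries. Of these genes, 6 were fitted lower and 2 higher (median log2 fold change -0.09). Among them 1, Slc32a1 (-0.56, SE 0.21), had an unadjusted p under 0.05 in edgeR, beside the same 1.91% of all tested genes.

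Casz1 showed the largest difference of the 3 genes. It lies on the plus strand of chromosome 4 (chr4:148804429-148954889, GRCm38, GENCODE M21) and is protein-coding. Exons of the antisense model Gm13205 overlap its exons, and counts made without strand cannot separate the 2 genes. RefSeq gives Casz1 a pair of starts, an outer one and one within the gene, and the 250 bases before each (RefSeq, GRCm38.p6, plus strand, 5′ to 3′) are shown because they differ in base composition at the gene with the largest difference. Capitals mark the dinucleotide CG, which reads the same on both strands.
Casz1 outer start, chr4:148804142-148804391: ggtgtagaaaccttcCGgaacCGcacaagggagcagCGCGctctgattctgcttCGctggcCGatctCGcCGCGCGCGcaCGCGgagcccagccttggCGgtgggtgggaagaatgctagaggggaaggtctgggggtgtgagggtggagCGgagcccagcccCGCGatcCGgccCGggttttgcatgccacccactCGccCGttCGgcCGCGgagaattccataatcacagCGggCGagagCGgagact
Casz1 inner start, chr4:148889097-148889346: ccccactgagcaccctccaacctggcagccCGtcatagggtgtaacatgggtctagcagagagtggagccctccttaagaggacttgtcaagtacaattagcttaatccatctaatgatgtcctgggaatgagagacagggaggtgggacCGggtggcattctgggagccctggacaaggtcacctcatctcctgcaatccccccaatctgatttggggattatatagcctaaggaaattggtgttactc
The outer window holds 27 CG pairs and 66.8% G or C, and the inner window 2 CG pairs and 52% G or C. Over 32851 RefSeq windows of the same length, 8.56% held 27 or more CG pairs and 81.2% held 2 or more. The expected counts of the deposited files are given per gene, so they do not tell which start a fragment came from. Neither window overlaps an annotated exon, whereas the Zfp536 window (16 CG pairs, reached by 25.4% of windows) does and is not printed.

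Casz1 had 2.45 (NX), 7.87 (NY), 10.2 (QT) and 6.16 CPM (RM) in KO libraries, against 52.0, 29.9, 44.2 and 34.9 CPM in Ctrl libraries of the same prefixes. These values rest on 36, 95, 67 and 37 expected counts in KO and on 839, 404, 578 and 192 in Ctrl libraries. Every KO library was low and every Ctrl library high, with no overlap. Casz1 averaged 6.67 ± 3.26 CPM in KO and 40.3 ± 9.83 CPM in Ctrl libraries (SD, n = 4 each), a log2 fold change of -2.61 (SE 0.40), or 6.10-fold lower in KO. The KO NX library had the lowest level and the Ctrl NX library the highest, and the log2 fold change was -2.16 without both. In bulk RNA of sorted cells, fewer cells with a transcript and less of it per cell cannot be told apart.

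Zfp536 was also lower in KO, by a smaller fold. It lies on the minus strand of chromosome 7 (chr7:37472135-37773641, GRCm38), with no annotated exon overlap on the other strand. Zfp536 had 27.4 (NX), 34.9 (NY), 30.0 (QT) and 37.6 CPM (RM) in KO libraries, against 56.6, 62.8, 108 and 102 CPM in Ctrl libraries. The KO libraries lay close together and all below the Ctrl libraries, which formed a lower pair (NX and NY) and a higher pair (QT and RM). The means were 32.5 ± 4.62 CPM in KO and 82.3 ± 26.3 CPM in Ctrl libraries (SD, n = 4 each), a log2 fold change of -1.34 (SE 0.26), or 2.53-fold lower in KO.

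Zfp521 had overlapping genotypes and instead varied by prefix. It lies on the minus strand of chromosome 18 (chr18:13687013-13972787, GRCm38). Zfp521 had 13.8 (NX), 38.0 (NY), 39.3 (QT) and 37.6 CPM (RM) in KO libraries, against 10.7, 35.1, 29.5 and 45.4 CPM in Ctrl libraries. Both NX libraries were low and the other 6 were between 29.5 and 45.4 CPM. The means were 32.2 ± 12.3 CPM in KO and 30.2 ± 14.6 CPM in Ctrl libraries (SD, n = 4 each), a log2 fold change of 0.10 (SE 0.42), and the value changed sign when the Ctrl NX library (-0.19), the KO QT library (-0.01) or both QT libraries (-0.02) were left out. This does not show that Zfp521 was the same in both genotypes.

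**Figure D1:**
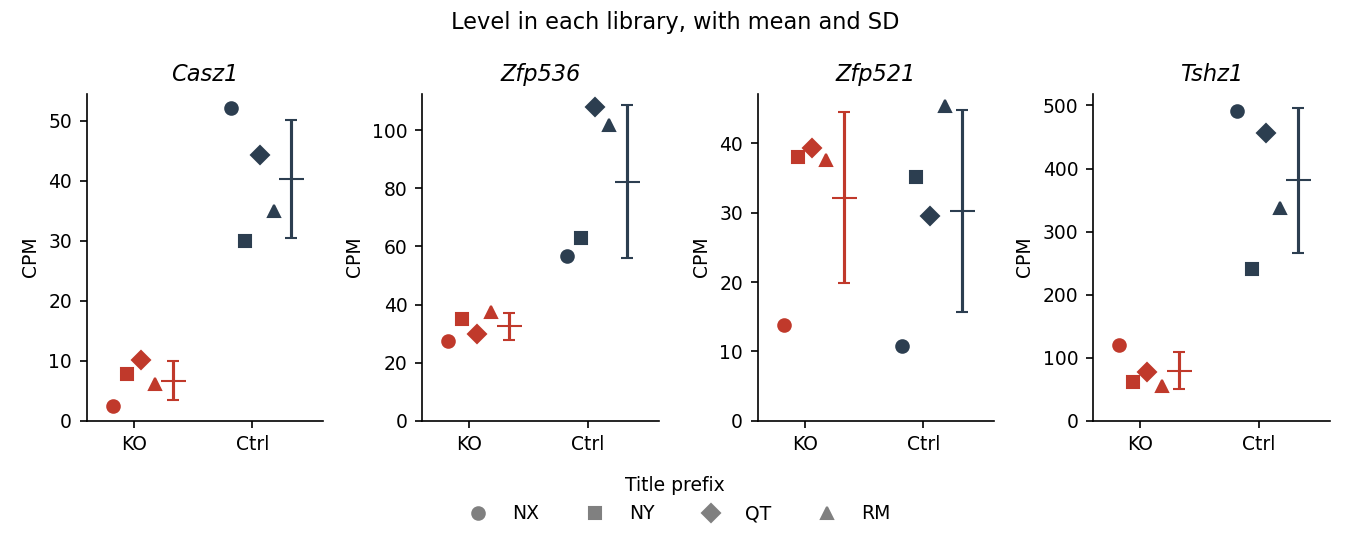
CPM (vertical axis, linear, from 0) of Casz1, Zfp536, Zfp521 and Tshz1 in 4 KO libraries (red, left) and 4 Ctrl libraries (dark blue, right), with marker shape for the title prefix and bars for mean and SD. KO points lie below all Ctrl points for Casz1 (2.45 to 10.2 against 29.9 to 52.0 CPM), Zfp536 and Tshz1, while for Zfp521 both NX libraries (13.8 CPM in KO and 10.7 CPM in Ctrl) lie below the rest.

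Casz1 and Zfp536 were thus 2 of 3 genes that were lower in KO without overlap, where 1.46% of all 14157 tested genes were (206 genes), 1.13% were higher without overlap and 2.59% either. None of the 3 was among the 5 genes called by edgeR's quasi-likelihood test at an adjusted p under 0.05 (0.0353% of those tested, 0.0283% lower), 2 of 3 had an unadjusted p under 0.05 (3.62% of those tested), and DESeq2 called 2 of 3, both lower (0.162% of its tested genes were called lower). The genes were chosen with this contrast in view, so nothing is read from these shares.

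The order of the mean levels per length differed between the genotypes, but not the order in every library. In KO libraries Zfp536 averaged 12.3 ± 1.49 TPM (a unit scaled to transcript length and library size), Zfp521 9.32 ± 3.32 TPM and Casz1 1.57 ± 0.81 TPM (SD, n = 4). In Ctrl libraries Zfp536 averaged 31.96 ± 8.96 TPM, Casz1 10.8 ± 4.01 TPM and Zfp521 8.97 ± 3.38 TPM (SD, n = 4). Among KO libraries the ranges of Zfp536 (10.09 to 13.36 TPM) and Zfp521 (5.64 to 12.66 TPM) overlapped and Casz1 (0.88 to 2.49 TPM) lay below both. Among Ctrl libraries Zfp536 (23.14 to 42.07 TPM) lay above both others, whose ranges overlapped (7.62 to 16.25 TPM for Casz1 and 4.08 to 11.78 TPM for Zfp521). Zfp521 lay above Casz1 in Ctrl NY (10.36 against 7.99 TPM) and Ctrl RM (11.78 against 7.62 TPM), the order of the KO libraries. It lay below Casz1 in Ctrl NX (4.08 against 16.25 TPM) and Ctrl QT (9.67 against 11.47 TPM). By mean TPM, Casz1 stood above 10.1% of tested genes in KO and 46.6% in Ctrl libraries. Zfp536 stood above 50.3% in KO and 74.9% in Ctrl libraries, and Zfp521 above 43.2% in KO and 41.5% in Ctrl libraries.

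The 3 genes were set beside Tshz1 pool by pool. Tshz1 separates the genotypes, so no correlation over all 8 libraries is given, and 4 pools per genotype are too few to test one within a genotype. As a share of the Tshz1 TPM of the same library, Casz1 was 1.56% (NX), 9.06% (NY), 8.23% (QT) and 7.06% (RM) in KO libraries, against 7.49%, 9.35%, 6.27% and 7.34% in Ctrl libraries. The share lay within the Ctrl range in the NY, QT and RM knockouts and below it in the KO NX library, which had the highest Tshz1 (56.52 TPM) and the lowest Casz1 (0.88 TPM) of the KO libraries. Among Ctrl libraries the NX and QT pools, which were highest in Tshz1 (216.91 and 182.97 TPM), were also highest in Casz1 (16.25 and 11.47 TPM). Within single prefixes, the KO minus Ctrl difference in log2 CPM of Casz1 was -4.31 (NX), -1.90 (NY), -2.10 (QT) and -2.47 (RM), beside -2.02, -1.96, -2.54 and -2.59 for Tshz1.

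Zfp536 was 22.2% (NX), 58.8% (NY), 44.2% (QT) and 79.1% (RM) of the Tshz1 TPM in KO libraries, against 10.7%, 30.2%, 23.0% and 35.4% in Ctrl libraries. This share was higher in the KO library of each prefix. Such a share restates 2 differences already given, since Tshz1 was 4.81-fold lower in KO and Zfp536 2.53-fold lower. The Ctrl NX library held the most Tshz1 and the least Zfp536 (23.14 TPM) of the Ctrl libraries. The Zfp536 difference within prefixes was -1.04 (NX), -0.84 (NY), -1.84 (QT) and -1.43 (RM) on the log2 CPM scale. Zfp521 was 9.98% (NX), 52.0% (NY), 41.9% (QT) and 58.4% (RM) of the Tshz1 TPM in KO libraries, against 1.88%, 12.1%, 5.29% and 11.3% in Ctrl libraries. Its difference within prefixes was 0.36 (NX), 0.12 (NY), 0.41 (QT) and -0.27 (RM).

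**Figure D2:**
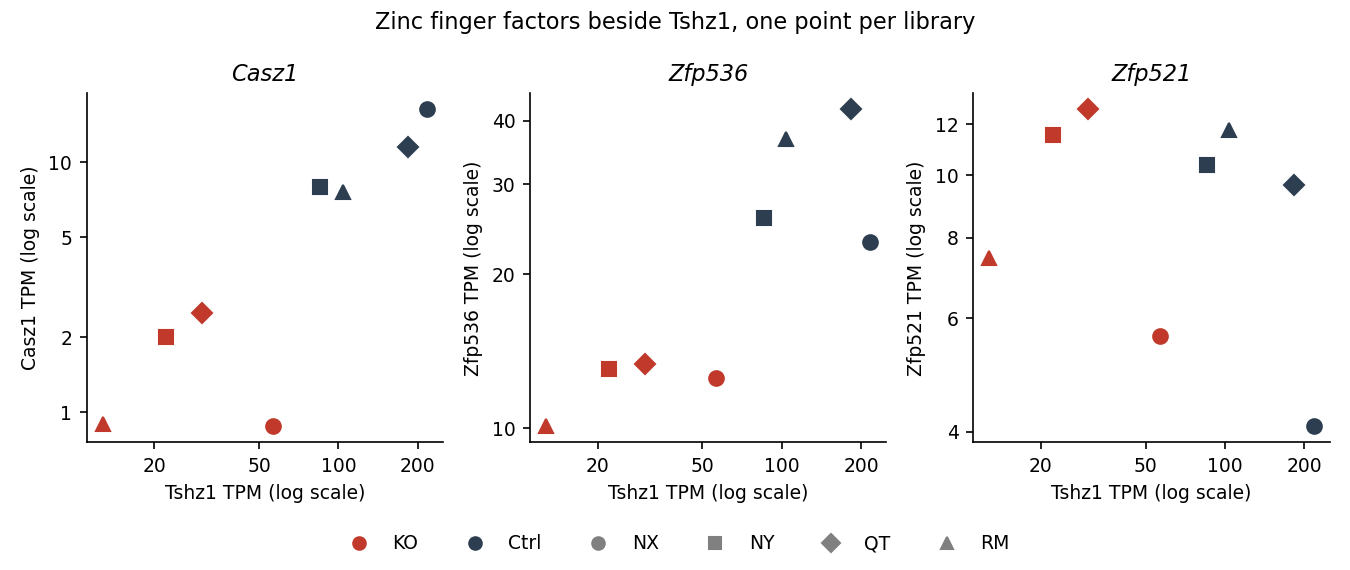
TPM of Casz1, Zfp536 and Zfp521 (vertical axes, log scale) against TPM of Tshz1 (horizontal axes, log scale), 1 point per library, red for KO and dark blue for Ctrl, with marker shape for the title prefix. The KO NX point of Casz1 (0.88 TPM at 56.52 TPM of Tshz1) lies apart from the other 7 libraries, and both NX points of Zfp521 (5.64 TPM in KO and 4.08 TPM in Ctrl) are the lowest of their genotypes.

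EGFP, the reporter transcript used for the sort, had 42.1, 26.0, 17.2 and 13.1 CPM in KO libraries NX, NY, QT and RM, against 63.6, 28.7, 59.3 and 37.6 CPM in Ctrl libraries. Casz1 TPM was 0.402% (NX), 2.28% (NY), 3.28% (QT) and 2.75% (RM) of EGFP TPM in KO libraries, against 6.05%, 8.43%, 4.50% and 5.79% in Ctrl libraries. Relative to the reporter, Casz1 was thus lower in every KO library than in every Ctrl library. Zfp536 was 5.74% to 30.8% of EGFP TPM in KO libraries, against 8.62% to 27.9% in Ctrl libraries, and these ranges overlapped. EGFP itself was lower in the KO library of each prefix (log2 fold change -0.94, SE 0.37), with overlap between the genotypes. Each share of EGFP thus mixes its difference with that of the gene, and the overlap for Zfp536 does not show an unchanged level.

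The mix of transcript models was examined through the length that RSEM reports per gene and library, which is the mean transcript length weighted by the estimated isoform shares and which had no part in the choice of the genes. Casz1, with 4 transcript models, had lengths of 6483 (NX), 7184 (NY), 7966 (QT) and 7966 bases (RM) in KO libraries, against 7016, 6651, 7593 and 6994 bases in Ctrl libraries. Ranges overlapped, and the length was at the longest value in the KO QT and KO RM libraries, which hold 67 and 37 counts. The KO minus Ctrl difference was 336 bases (7400 ± 714 against 7063 ± 391 bases, SD, n = 4 each; exact two-sided permutation p = 0.40 over 70 arrangements). Zfp536, with 5 models, averaged 4776 ± 351 bases in KO and 4822 ± 536 bases in Ctrl libraries (SD, n = 4 each; exact permutation p = 0.886). Zfp521, with 3 models, averaged 5973 ± 166 bases in KO and 5959 ± 116 bases in Ctrl libraries (SD, n = 4 each; exact permutation p = 0.857). Adjusted over the 3 tests by Benjamini-Hochberg, each exact permutation p was 0.886, where the smallest p that 4 against 4 libraries allow is 0.0286 before adjustment. After this adjustment a gene on its own could not pass, whatever its lengths. No difference in mean length was detected, and a change in isoform mix that keeps the mean length would not show. At the Casz1 counts of the KO libraries the estimate is coarse.

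Other cells in the sort were followed through marker lists. Both NX libraries had the lowest summed levels of radial glia markers (190 CPM in KO and 110 CPM in Ctrl, against 397 to 859 CPM in the other KO and 445 to 699 CPM in the other Ctrl libraries). The same held for cycling cell markers, with 161 CPM in KO NX and 129 CPM in Ctrl NX, against 1071 to 1233 CPM in the other KO and 444 to 749 CPM in the other Ctrl libraries. Pallial glutamatergic markers had 207 CPM in KO NX and 45.6 CPM in Ctrl NX, against 338 to 559 and 268 to 417 CPM in the other libraries of each genotype. The NX library of each genotype was also lowest for the interneuron, oligodendrocyte lineage, microglial, and vascular and meningeal sums given below. Zfp521 was low in the same NX pair, and the part of any of these cells in its level was not tested. Ebf1, the transcription factor that ZFP521 blocks, was low there too, with 1.77 (NX), 41.4 (NY), 90.4 (QT) and 54.7 CPM (RM) in KO libraries, against 2.85, 44.0, 22.3 and 53.4 CPM in Ctrl libraries.

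**Figure D3:**
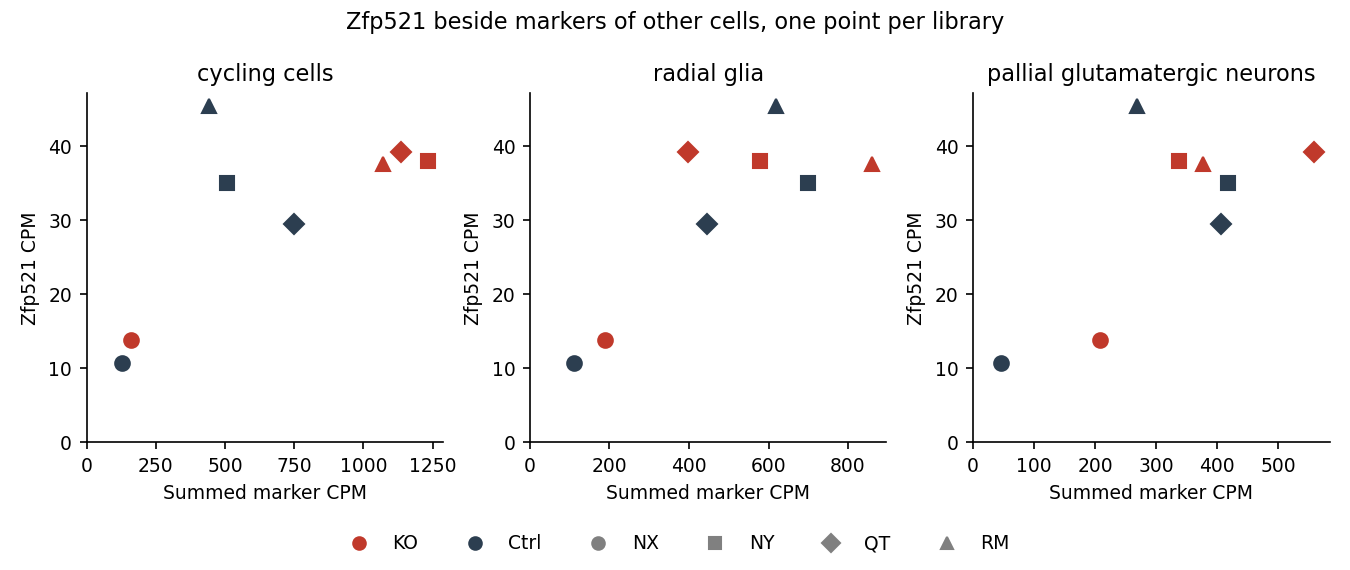
CPM of Zfp521 (vertical axes) against the summed CPM of markers of cycling cells (10 genes), radial glia (7 genes) and pallial glutamatergic neurons (10 genes) on the horizontal axes, all linear from 0, 1 point per library, red for KO and dark blue for Ctrl, with marker shape for the title prefix. In every panel the 2 NX libraries (13.8 CPM of Zfp521 in KO and 10.7 CPM in Ctrl) lie at the lower left, apart from the other 6.

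On the CPM scale Zfp536 was also lowest in NX in each genotype, by a smaller margin (27.4 CPM in KO and 56.6 CPM in Ctrl). In TPM its lowest KO library was RM (10.09 TPM, against 12.56 TPM in KO NX). Casz1 was lowest in NX among KO libraries (2.45 CPM) and highest in NX among Ctrl libraries (52.0 CPM). Cycling cell markers were fitted higher in KO for 9 of 10 genes (median log2 fold change 0.95). Of these, 1 had an unadjusted p under 0.05 in edgeR, where 1.70% of all tested genes were higher at that threshold. Tested microglial markers were fitted lower for 7 of 7 (median -1.08), 0 of them at that threshold (1.91% of all tested genes were). Markers of oligodendrocyte lineage cells (5 genes) summed to 2.79 to 53.1 CPM in KO and 0.558 to 58.0 CPM in Ctrl libraries, and those of microglia (9 genes) to 9.12 to 47.6 CPM in KO and 4.46 to 125.6 CPM in Ctrl libraries. Vascular and meningeal markers (9 genes) summed to 2.72 to 12.6 CPM in KO and 1.43 to 53.0 CPM in Ctrl libraries, and interneuron markers of the medial and caudal eminences (8 genes) to 126 to 275 CPM in KO and 54.3 to 257 CPM in Ctrl libraries. No gene of any marker list was at 0 in all 8 libraries. The part of these cells, or of the levels of intercalated cell markers, in the Casz1 and Zfp536 differences was not tested.

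The relatives and partners of the 3 proteins were read from lists. In edgeR's quasi-likelihood test none of the members of these 8 lists was called over all genes, and the median log2 fold change over all tested genes was -0.01, with 50.6% of them fitted lower in KO. Zfp423, the relative of Zfp521 that works with SMAD proteins in BMP signalling, had 21.3 ± 8.46 CPM in KO and 30.4 ± 17.1 CPM in Ctrl libraries (log2 fold change -0.51, SE 0.42; n = 4 each). Zfp219, listed as the relative of Zfp536, had 9.60 ± 2.50 CPM in KO and 11.7 ± 5.06 CPM in Ctrl libraries (-0.29, SE 0.39), and exons of Arhgef40, Gm49086 and Tmem253 overlap its own on the other strand. Of 3 tested EBF genes, 2 were fitted lower, and Ebf1 and Ebf4 had log2 fold changes of 0.62 (SE 0.87) and -0.99 (SE 0.63). Ebf3 had -0.08 (SE 0.93), and Ebf2 did not pass the filter.

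Genes of the NuRD complex, the chromatin remodelling and deacetylase repressor that CASZ1 and ZFP521 can bind, were all tested (14 of 14). Of these, 11 were fitted lower and 3 higher (median log2 fold change -0.23), 1 lower and 1 higher at an unadjusted p under 0.05 (1.91% and 1.70% of all genes), and DESeq2 called 0. Chd5, the remodeller typical of neurons, had 48.6 to 59.6 CPM in KO and 73.3 to 114 CPM in Ctrl libraries (log2 fold change -0.70, SE 0.21; edgeR adjusted p = 0.939), and Gm13645 overlaps its exons on the other strand. Rbbp7, a histone-binding subunit, had 42.9 to 54.8 CPM in KO and 24.5 to 41.3 CPM in Ctrl libraries (0.48, SE 0.22; edgeR adjusted p = 1.00). Its expected counts were not whole in most libraries, so some fragments were shared with other places. Mbd2 and Mbd3, alternative methyl-CpG binding domain subunits, had log2 fold changes of -0.72 (SE 0.33) and -0.64 (SE 0.33).

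Polycomb genes, whose complexes repress developmental genes and work with CASZ1 in the mouse retina, had 24 of 25 members tested. Of these, 14 were fitted lower and 10 higher (median log2 fold change -0.03), 2 lower and 0 higher at an unadjusted p under 0.05 (1.91% and 1.70% of all genes), and DESeq2 called 0. Phf19, an accessory subunit, had 0, 2, 0 and 5 counts in KO libraries NX, NY, QT and RM, against 14, 13, 35 and 12 counts in Ctrl libraries, too few for a fold. Phc1, a subunit of the first Polycomb complex, had 121 ± 21.2 CPM in KO and 164 ± 27.0 CPM in Ctrl libraries (-0.44, SE 0.20; n = 4 each), with overlap. Pcgf1 and Mtf2 had log2 fold changes of -1.01 (SE 0.49) and 0.34 (SE 0.20).

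For the BMP, SMAD and ID genes, the signalling pathway that Zfp423 and its relatives touch, 13 of 17 members were tested. Of these 6 were fitted lower and 7 higher (median 0.09), and 0 had an unadjusted p under 0.05. Smad7, an inhibitory SMAD, and the receptor Acvr1 had log2 fold changes of -0.92 (SE 0.43) and -0.56 (SE 0.28), the HLH inhibitor Id4 -0.65 (SE 0.35) and the receptor Bmpr1a 0.26 (SE 0.24). Of 6 retinoid receptors, the pathway named with ZNF536, 4 were fitted lower and 2 higher (median -0.40), and 0 had an unadjusted p under 0.05. Rara, Rxra, Rarb and Rxrb had log2 fold changes of -0.45 (SE 0.27), -0.65 (SE 0.41), -0.55 (SE 0.56) and -0.35 (SE 0.38). DESeq2 called 0 genes of either list.

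Among 58 other neural C2H2 zinc finger factors, 48 were tested, 28 fitted higher and 20 lower (median log2 fold change 0.10). At an unadjusted p under 0.05, 4 were higher (1.70% of all genes were) and 2 lower (1.91% of all genes were). DESeq2 called 2 of them, Tshz3 and Zfp804a, both higher, where it called 0.0870% of its tested genes higher. Tshz3, a teashirt paralog of Tshz1, had 17.8 to 27.9 CPM in KO and 3.16 to 8.44 CPM in Ctrl libraries (1.90, SE 0.37; edgeR adjusted p = 0.161). Zfp804a had 320 (NX), 67.1 (NY), 81.7 (QT) and 47.6 CPM (RM) in KO libraries, against 43.1, 17.8, 31.5 and 20.5 CPM in Ctrl libraries (2.19, SE 0.54; edgeR adjusted p = 0.541). Its KO NX library was far above the other KO libraries, as Casz1 in that library was below the others. Zfhx4, a zinc finger and homeobox factor, had 259 to 411 CPM in KO and 301 to 728 CPM in Ctrl libraries (-0.75, SE 0.28), and Tshz2 had a log2 fold change of 1.11 (SE 0.42). 

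Casz1 is also associated with eccentric spiny projection neurons, a minor striatal class. Of 5 other genes listed for that class, all tested, 4 were fitted lower and 1 higher (median log2 fold change -0.26), and DESeq2 called 0. Of the lower genes, 1 had an unadjusted p under 0.05 in edgeR, where 1.91% of all tested genes were lower at that threshold. That gene, Adarb2, an RNA-binding relative of the RNA-editing enzymes, had 67.0 to 105 CPM in KO and 97.0 to 236 CPM in Ctrl libraries (-0.92, SE 0.27; edgeR adjusted p = 0.884), with overlap and with expected counts that were not whole. Otof, a calcium sensor of vesicle release, averaged 0.787 ± 0.328 CPM in KO and 1.27 ± 0.549 CPM in Ctrl libraries (n = 4 each), and Col11a1 and Cacng5 had log2 fold changes of -0.26 (SE 0.29) and 0.24 (SE 0.75).

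**Figure D4:**
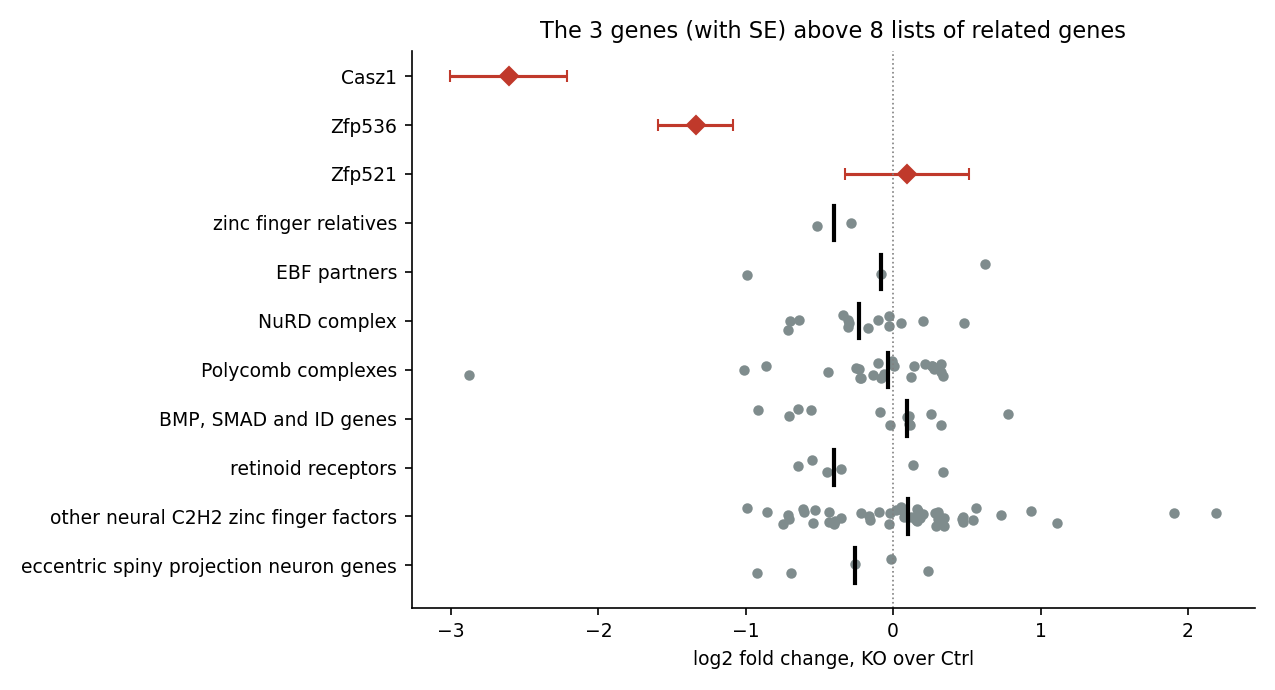
Log2 fold change, KO over Ctrl (horizontal axis), of Casz1, Zfp536 and Zfp521 (red diamonds with SE, top) above the tested members of 8 lists of related genes (grey points, spread vertically at random for legibility) with each list's median as a black bar. Casz1 (-2.61) lies left of every list member shown except Phf19, and Zfp536 (-1.34) left of all but Phf19, while Zfp521 (0.10) lies near 0.

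Genes with the most similar pattern were sought among 12879 genes averaging 1 or more on the log2 CPM scale, by Pearson's r of log2 CPM over 8 libraries with each genotype's mean subtracted, so the genotype difference had no part. The 5 genes most like Casz1 were Exosc8, Stra6, Fundc1, AK049441 and Tmem108 (r = 0.95 to 0.97). For Zfp536 they were Spen, Ankrd11, Usp8, Skiv2l and Pkmyt1 (r = 0.97 to 0.99), and for Zfp521 they included Hs3st1, Pld1, Fbln2 and Creb3l2 (r = 0.987 to 0.989). These r are the highest of many over few libraries that share prefixes, and are given without p as a description. The genes named for Zfp521 had 0 to 10 expected counts in the NX libraries and more in every other library. Pld1 was below the floor of 3 counts in both NX libraries. Of the genes named here, Tmem108 alone had an unadjusted p under 0.05 in the genotype contrast (log2 fold change -0.89, SE 0.36), with 14.4 ± 6.02 CPM in KO and 26.6 ± 4.56 CPM in Ctrl libraries (n = 4 each; edgeR adjusted p = 1.00).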

How the data were processed

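RNA from sorted GFP-positive cells was measured in 8 libraries of pooled embryos, 4 KO (Tshz1GFP/RA) and 4 Ctrl (Tshz1GFP/+). Tools named in the submitters' processing notes are RSEM 1.2.22, Trimmomatic 0.33 and Bowtie2, and the build is mm10; which annotation release served is not given in the sources used here. The deposited tables hold, per the file headers, expected counts (estimated fragments, which need not be whole), TPM and FPKM per gene, with transcript length and effective length in bases. The deposited FPKM values were not used. The deposited matrices equalled the sample files in 16 columns (largest difference 0). The labels name no molecular identifiers, and cDNA was amplified, so the floors reflect counting error alone.

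For the tests, expected counts were made whole by rounding and fitted with edgeR 4.0.16 (R 4.3.3): filterByExpr defaults (14157 of 32543 genes), TMM factors, glmQLFit and glmQLFTest with genotype as the single term, Benjamini-Hochberg over all genes, calls at an adjusted p under 0.05. SEs come from the quasi-likelihood F. CPM values use TMM; log2 CPM uses a prior count of 2. Counts of Casz1, Zfp536 and Zfp521 were whole in 8 of 8 libraries. Alternatives used DESeq2 1.42.0, limma 3.58.1 on log2(TPM + 1) or log2(TPM + 0.1), and others given below. The fit was tested on simulated data.

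The members and lists were chosen with earlier results of these data known. Named genes are the 3 members, Tshz1, EGFP, up to 4 members of each of 8 lists with the smallest p, and for each member the 5 genes of highest r, of which 1 is not reported here. Positions are from GENCODE M21 (GRCm38, the same build as mm10).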

Additional observations from a re-analysis of the deposited data

Results flagged for a closer look

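In groups of 4 libraries, a library was singled out where its gap to the nearest other as a share of the group's range was above Dixon's critical value for 4 samples. The rule was applied to CPM of 49 genes in 2 genotypes (98 groups), of which 7 met it, and chance flags about 1 in 20 independent groups. Some of the genes were picked for their pattern in these libraries, such as Tmem108 for its likeness to Casz1. The count of flags is therefore not compared with chance. Zfp521 in KO libraries met it with NX at 13.8 CPM, against 37.6 to 39.3 CPM in the other KO libraries, and the Ctrl NX library was also the lowest of its genotype (10.7 CPM). NX was the outlying KO library for Zfp804a (320 CPM, against 47.6 to 81.7 CPM) and for Tmem108 (5.45 CPM, against 16.6 to 18.6 CPM), and the outlying Ctrl library for Rarb (32.98 CPM, against 5.45 to 7.33 CPM). The others were Pcgf1 in KO RM (5.82 CPM, against 2.18 to 2.44 CPM), Acvr1 in KO QT (13.1 CPM, against 19.5 to 20.3 CPM) and Rxra in KO NY (10.8 CPM, against 6.20 to 6.70 CPM).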

How the results depend on the processing

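Casz1 and Zfp536 were fitted lower in KO in all 21 alternatives, with log2 fold changes of -2.90 to -2.16 and -1.49 to -1.14. Casz1 was called in 7 of these: with no composition factors, with no filter or the filter of 10 counts, with the replicate block, by DESeq2, on log2(TPM + 1) and without the KO NX library (-2.32). Zfp536 was called with the replicate block and by DESeq2. Zfp521 was called in 0 of 21 and ran from -0.19 to 0.36, fitted lower in 3. The count of genes called was 5, and moved to 9 with no composition factors, 19 with no filter, 10 with at least 10 counts in every library of a genotype, 40 with DESeq2, 2 with limma-voom, 10 on log2(TPM + 1) and 11 at an adjusted p under 0.1. It ran from 0 to 5 with 1 library left out: 0 without KO NY, KO QT, Ctrl NX, Ctrl QT or Ctrl RM (where edgeR still gave 328 to 716 genes an unadjusted p under 0.05) and 1 without KO RM. Tshz1 kept its direction in all 21 alternatives and its call in 11. Leaving out a whole prefix gave 3 calls for NX and 0 for NY, QT and RM (there 430, 262 and 470 genes in edgeR had an unadjusted p under 0.05). The causes were not tested. In the replicate block fit on title prefix 28 genes were called (17 lower, 0.120% of those tested, and 11 of 14157 higher). Casz1, Zfp536, Tshz1, Zfp804a and the cycling cell marker Ccna2 were among them. The labels do not say what the prefix marks. Deviations of same-prefix libraries from their genotype means correlated across genes at 0.38 (NX), 0.30 (NY), 0.07 (QT) and 0.45 (RM), and at -0.35 to 0.08 between libraries of different prefixes, and KO QT correlated no better with Ctrl QT than with Ctrl RM (0.07). No length difference passed in the other 10 of 11 alternatives per gene. Within prefixes (replicate block) the exact permutation p was 0.375 for Casz1, 0.875 for Zfp536 and 0.625 for Zfp521, where the smallest p it allows is 0.125, so it could not pass. With 1 library left out the length difference ran from 148 to 642 bases for Casz1, from -205 to 151 bases for Zfp536 and from -37.4 to 87.8 bases for Zfp521. Depth limits Casz1 most, with 36 to 95 counts in KO libraries.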
